A study of Mus musculus with 16 samples.

Results

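The 4 parathyroid marker genes Pth (ENSMUSG00000059077.7), Gcm2 (ENSMUSG00000021362.8), Casr (ENSMUSG00000051980.14) and Gata3 (ENSMUSG00000015619.11) were taken by name from the 21640 genes counted in mouse thyroid RNA. They were taken as known genes of the parathyroid, with earlier results of these data in view. RNA-seq libraries were made from poly(A) RNA of 16 thyroids of wild-type (WT) C57Bl/6J mice, 1 library per mouse. The mice were 8 weeks old when they were either kept on the chow diet (CD) or given a high-fat diet together with sucrose water (HF+SD), and thyroids were collected 3 or 6 weeks later. There were 4 mice per diet and time point, no mouse carried a modified allele, and the supplement of the study describes the sequenced mice as male. The 3-week and 6-week libraries have different prefixes in their library names, so diets were compared within a time point. Values over all 16 libraries mix both sets of libraries, and no difference in level between the time points is read from them.

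The parathyroid glands are small endocrine glands that lie on or within the thyroid, so a dissected thyroid can carry them along. Their chief cells store parathyroid hormone and release it when blood calcium falls, and the hormone raises calcium through bone and kidney. Pth encodes this hormone. Casr encodes the calcium-sensing receptor, a G protein-coupled receptor that holds back release of the hormone when calcium is high, and it is also made outside the parathyroid, including in thyroid C cells. Gcm2 is a transcription factor that chief cells require to form and to survive, and Gata3 is a zinc finger transcription factor of the parathyroid that also acts in T cells and other tissues.

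The promoters of Pth and Gcm2 are shown because this pair of members had the highest Pearson's r over the 16 libraries, although by rank Gcm2 and Gata3 were closer. Each line holds the 250 bases before the start of transcription in RefSeq on GRCm38.p6, 5′ to 3′, with every GATA match on either strand (GATA or its reverse complement TATC) in capitals. All 4 genes had an entry. The libraries were aligned to another build (mm39), and no coordinates were carried between the builds.
Pth, chr7:113388574-113388823, minus strand: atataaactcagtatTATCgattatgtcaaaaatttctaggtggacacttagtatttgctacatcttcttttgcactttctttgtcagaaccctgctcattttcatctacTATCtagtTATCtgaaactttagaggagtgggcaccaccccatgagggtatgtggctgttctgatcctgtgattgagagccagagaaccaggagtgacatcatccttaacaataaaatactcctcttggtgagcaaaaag
Gcm2, chr13:41109989-41110238, minus strand: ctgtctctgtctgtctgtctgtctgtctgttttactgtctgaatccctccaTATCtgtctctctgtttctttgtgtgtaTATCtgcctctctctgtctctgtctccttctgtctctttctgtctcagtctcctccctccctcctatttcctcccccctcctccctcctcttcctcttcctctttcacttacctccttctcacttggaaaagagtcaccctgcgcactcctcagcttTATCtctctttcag
Both windows held 3 GATA matches, all on the reverse strand, Casr held 2, and Gata3 held none. GATA is common: 53.6% of the 32817 promoter windows of this length held it. GC content was 39.2% before Pth, 48.8% before Gcm2 and before Casr, and 70.0% before Gata3, against a median of 52.4% over all windows. On both strands, TATAAA stood once before Pth, at the far end of the window, and AATAAA once before Pth and once before Casr, while 12.4% and 18.1% of all windows held them. Neither ATGCGGG, the letters bound by GCM factors (1.19% of all windows), nor TGACGT, the core of the cAMP response element (6.46%), was found before any of the 4 genes.

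Library totals ran from 30025256 to 48508653 counts. Tg, the thyroglobulin gene that marks thyroid tissue, took 26.8% to 29.7% of the counts at 3 weeks and 4.73% to 13.6% at 6 weeks. A list of 18 skeletal muscle genes took 14.5% of the counts in M45, 10.5% in M48, 3.45% in M43 and 0.0878% in M22, the 4 CD libraries at 6 weeks. It took 0.110% to 0.398% in the 6-week HF+SD libraries and at most 0.00637% at 3 weeks. For the parathyroid genes 3 other libraries stood apart: M54 (CD) and M19y (HF+SD) at 3 weeks were very low, and M22 (CD) at 6 weeks was very high. Results at 3 weeks are therefore also given without M54 and M19y, and results at 6 weeks without M45 and M48 or without M22. These choices of libraries were made after seeing the data.

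Reads of Pth were counted in all 16 libraries, in amounts that differed between mice by orders of magnitude. Pth took 1.69% of all counts in M22 and 0.000209% in M19y (Wilson 95% interval 0.000168% to 0.000259%, which covers counting error only). Ranked by counts per base of exon among 20841 named genes, Pth was the top gene in M22, stood between ranks 3 and 34 in 13 other libraries, and stood at rank 1186 in M54 and 9034 in M19y. Within the 3-week libraries, the highest level was 1379 times the lowest for Pth, 339 times for Gcm2, 14.0 times for Gata3 and 3.32 times for Casr. Within the 6-week libraries it was 33.9 times for Pth, 25.7 times for Gcm2, 9.14 times for Gata3 and 4.69 times for Casr. On a scale of CPM per kilobase of exon (CPM being counts divided by library size, in ppm, with the size scaled by TMM, the trimmed mean of M-values), the median of the 3-week libraries was 1076 for Pth, 6.86 for Casr, 2.52 for Gcm2 and 0.722 for Gata3. The median of the 6-week libraries was 2850 for Pth, 4.88 for Casr, 3.41 for Gcm2 and 0.756 for Gata3. Casr thus had the second highest level per length of the 4 genes and the narrowest range at both time points.

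**Figure D1:**
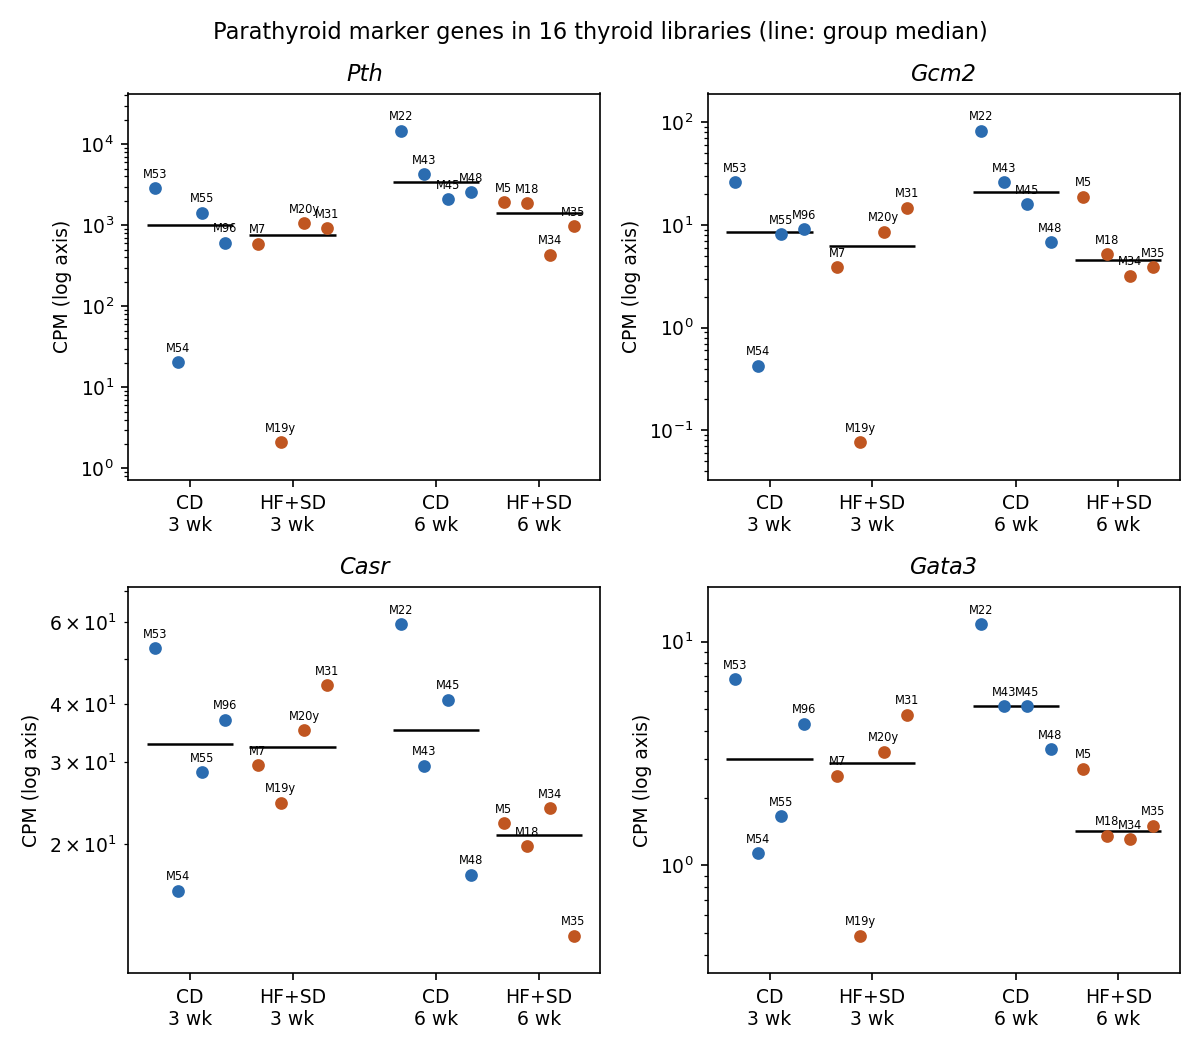
CPM of Pth, Gcm2, Casr and Gata3 in each of the 16 libraries on log axes, with mouse names, by diet (blue, CD; orange, HF+SD) and weeks on the diet; the black line is the median of the 4 mice. M54 and M19y lie far below their groups for Pth and Gcm2, and at 6 weeks every HF+SD point lies below every CD point for Pth and Gata3.

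At 6 weeks, Pth was lower in every HF+SD thyroid than in any CD thyroid. It stood at 14625, 4275, 2110 and 2569 CPM in M22, M43, M45 and M48 (CD), and at 1938, 1871, 432 and 979 CPM in the HF+SD mice M5, M18, M34 and M35. The groups did not overlap, but the lowest CD mouse and the highest HF+SD mouse stood close together, and M22 stood far above the other CD mice. The log2 fold change (HF+SD against CD) was -2.18 (standard error 0.70, 95% interval -3.75 to -0.61). Its adjusted p over all 18249 tested genes was 0.0527 from edgeR's quasi-likelihood test, just above the threshold of 0.05, and an exact permutation test of log2 CPM, two-sided here and throughout, gave p = 0.0286, the smallest that 4 mice against 4 can give. With M45 and M48 left out the log2 fold change was -2.85 (adjusted p = 0.0278), and without M22 it was -1.20 (adjusted p = 0.0875). M45 and M48 had less Pth than M22 and M43, so leaving them out raises the CD mean by construction. In whole tissue, fewer parathyroid cells and less of the RNA per cell cannot be told apart.

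Casr stood at 59.4, 29.5, 40.9 and 17.2 CPM in M22, M43, M45 and M48 (CD) at 6 weeks. In the HF+SD mice M5, M18, M34 and M35 it stood at 22.2, 19.7, 23.8 and 12.7 CPM. The groups overlapped, since the CD mouse M48 lay below 3 of the 4 HF+SD mice. Between diets Casr had a log2 fold change of -0.91 (standard error 0.35, 95% interval -1.70 to -0.12) and missed the threshold (adjusted p = 0.0920, edgeR). With DESeq2 it was -0.93 (adjusted p = 0.0391), below the fold change minimum for a call. The exact permutation test gave p = 0.143. Without M22 the log2 fold change was -0.58 (adjusted p = 0.175).

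The transcription factors stood as follows at 6 weeks. Gcm2 had 82.2, 25.9, 15.8 and 6.75 CPM in M22, M43, M45 and M48 (CD), and 18.9, 5.20, 3.19 and 3.90 CPM in the HF+SD mice M5, M18, M34 and M35. M5 lay above 2 CD mice, so the groups overlapped. Between diets Gcm2 had a log2 fold change of -2.07 (standard error 0.81, 95% interval -3.90 to -0.25, adjusted p = 0.0973 from edgeR; exact permutation p = 0.0857). Without M22 it was -1.06 (adjusted p = 0.246), and without M5 it was -2.99 (adjusted p = 0.0422).

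Gata3 was the member that passed the test. It had 11.9, 5.14, 5.14 and 3.30 CPM in M22, M43, M45 and M48 (CD), and 2.71, 1.35, 1.31 and 1.50 CPM in the HF+SD mice M5, M18, M34 and M35. No HF+SD mouse reached the lowest CD mouse. Gata3 fell with a log2 fold change of -1.89 (standard error 0.42, 95% interval -2.84 to -0.95, adjusted p = 0.0145 from edgeR), and the exact permutation test gave p = 0.0286. Without M22 the log2 fold change was -1.40 (adjusted p = 0.00898). The call was lost when M18 or M34 was left out (adjusted p = 0.0515 and 0.0518). Gata3 was counted from 43 to 415 reads per library at 6 weeks. In GENCODE M21 it overlaps 4930412O13Rik, which was counted separately with 7 to 114 reads, and whether counting used the strand is not given in the sources used here.

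Calls needed a fold change of more than 1 on the log2 scale in either direction, beside an adjusted p below 0.05. By that rule 1 of the 4 members was called at 6 weeks, with 12.6% of all tested genes called, 6.01% called lower, and 21.5% under 0.05 with no fold change minimum. Before adjustment, p from edgeR was 0.0117 for Pth, 0.0301 for Gcm2, 0.0277 for Casr and 0.00132 for Gata3. Gcm2, with the largest of these, ranked 5636 by p among 18249 tested genes. DESeq2 called Pth (adjusted p = 0.0344) and Gata3 (adjusted p = 4.26e-05). For 2 of the 4 members, Pth and Gata3, every HF+SD library lay below every CD library, which held for 9.77% of all tested genes. The 18 skeletal muscle genes were all called lower at 6 weeks, the 16 thyrocyte genes were called higher in 8 cases and lower in none, and the summed share of the thyrocyte list was 4.96% to 12.1% of the counts in CD mice against 10.8% to 15.2% in HF+SD mice. The log2 fold changes of the 4 members were at least as large with M45 and M48, the libraries richest in muscle, left out. In edgeR they were -2.85 for Pth, -2.78 for Gcm2 (adjusted p = 0.0513), -1.17 for Casr (adjusted p = 0.0586) and -2.30 for Gata3 (adjusted p = 0.0136). For Pth, Gcm2 and Gata3, M45 and M48 lay at or below M22 and M43. Leaving them out thus raises the CD mean of these genes by construction, so the part of muscle RNA cannot be read from these fits. With counts scaled to 8 thyrocyte genes, a scaling that shifts the median gene by -0.55, the log2 fold changes were -2.46 for Pth, -2.29 for Gcm2, -1.37 for Casr and -2.28 for Gata3.

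At 3 weeks, none of the 4 genes passed the test, and the ranges within a diet were far wider than the difference between diets for Pth and Gcm2. Pth had 2887, 20.4, 1426 and 610 CPM in M53, M54, M55 and M96 (CD), and 592, 2.09, 1062 and 918 CPM in the HF+SD mice M7, M19y, M20y and M31. The diets overlapped, and each held 1 mouse with hardly any Pth. For Pth the log2 fold change at 3 weeks came to -0.94 (standard error 1.36, 95% interval -3.99 to 2.10, adjusted p = 0.676 from edgeR over 17238 genes; exact permutation p = 0.543). Without M54 and M19y it was -0.94 (adjusted p = 0.263), and without M53 it was -0.091.

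Gcm2 had 25.9, 0.426, 8.09 and 9.10 CPM in M53, M54, M55 and M96 (CD) at 3 weeks. In the HF+SD mice M7, M19y, M20y and M31 it had 3.88, 0.0766, 8.54 and 14.7 CPM. The same M54 and M19y were lowest, with 15 and 3 reads (exact Poisson 95% intervals 8.40 to 24.7 and 0.619 to 8.77). Gcm2 had a log2 fold change of -0.67 at 3 weeks (standard error 1.06, 95% interval -3.03 to 1.69, adjusted p = 0.703), and it turned to 0.21 without M53.

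Gata3 had 6.78, 1.14, 1.66 and 4.30 CPM in M53, M54, M55 and M96 (CD), and 2.52, 0.485, 3.22 and 4.72 CPM in the HF+SD mice M7, M19y, M20y and M31. The diets overlapped, and Gata3 had a log2 fold change of -0.34 (standard error 0.65, 95% interval -1.79 to 1.12, adjusted p = 0.759), and it turned to 0.21 without M53 and to 0.010 without M19y. Casr had 52.7, 15.9, 28.6 and 37.0 CPM in the CD mice and 29.6, 24.5, 35.1 and 44.0 CPM in the HF+SD mice, in the same order. Here M19y had a Casr level close to the rest of its group. The log2 fold change of Casr was -0.0077 (standard error 0.32, 95% interval -0.71 to 0.70, adjusted p = 0.992), and it took either sign as single mice were left out.

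With 0 of the 4 members called at 3 weeks, the counts over all tested genes were 4.66% called, 1.40% called lower and 14.9% under an adjusted p of 0.05 with no fold change minimum. No member had every HF+SD library below every CD library, against 10.9% of all tested genes. At an unadjusted p under 0.05, the count of members was also 0, and DESeq2 called 0 of them.

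Whether the diet effect differed between 6 and 3 weeks was asked with an interaction term, fitted to the 16 libraries together. It was -1.29 for Pth (standard error 1.69, adjusted p = 0.696), -1.45 for Gcm2 (adjusted p = 0.606), -0.97 for Casr (adjusted p = 0.280) and -1.61 for Gata3 (adjusted p = 0.284) on the log2 scale. None passed the test, and 15 of 18929 genes did. Since the intervals at 3 weeks were wide, the effects at the 2 time points were not shown to differ and not shown to be alike.

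**Figure D2:**
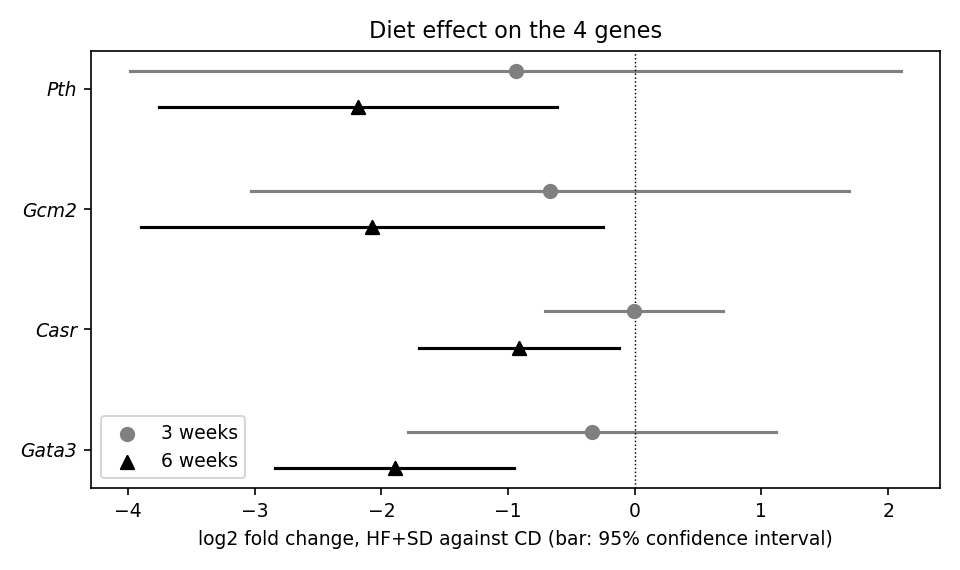
Log2 fold change of each gene, HF+SD against CD, at 3 weeks (grey circles) and 6 weeks (black triangles). Bars are 95% confidence intervals from the edgeR fit, not adjusted for the number of genes tested. The dotted line is no change. At 6 weeks the 4 intervals lie below 0, from -3.90 to -0.12 in all, and at 3 weeks the 4 intervals include 0.

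Levels of the 4 genes were correlated between mice, to a degree that depended on the pair, on the measure and on a few libraries. Both diets were pooled with no group mean subtracted, so a shift by diet or by set of libraries enters these correlations. The permutations also ran across diets and sets, so their p-values do not measure covariation within a group alone. With group means subtracted, r of Pth and Gcm2 was 0.95 over the 16 libraries, 0.98 at 3 weeks and 0.83 at 6 weeks. Log2 CPM of Pth and Gcm2 had Pearson's r = 0.95 over the 16 libraries (permutation p = 1e-05, the smallest that 100000 permutations give; adjusted p = 0.00018) and Spearman's rho = 0.83 (permutation p = 0.00013). Without M19y and M54, the libraries farthest from the median of Pth, r was 0.83. Within the time points it was 0.98 at 3 weeks (exact permutation p = 0.000843, adjusted p = 0.00304; rho = 0.79, exact p = 0.0279) and 0.90 at 6 weeks (exact permutation p = 0.00114, adjusted p = 0.00319; rho = 0.90, exact p = 0.00456), 8 libraries each. Without the 2 farthest libraries, r was 0.76 at 3 weeks and 0.72 at 6 weeks. The p-values were adjusted over 18 correlations, namely 6 pairs of members in 3 sets of libraries.

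Gcm2 and Gata3 had r = 0.89 over the 16 libraries (permutation p = 2e-05, adjusted p = 0.00018; rho = 0.87, permutation p = 3e-05). Within time points r was 0.94 at 3 weeks (exact permutation p = 0.00062, adjusted p = 0.00279) and 0.93 at 6 weeks (exact permutation p = 0.00191, adjusted p = 0.0041), with rho of 0.98 and 0.86 (exact permutation p = 0.000397 and 0.0107). Without the 2 libraries farthest in Gcm2, r was 0.88 over all libraries, 0.76 at 3 weeks and 0.81 at 6 weeks. Pth and Gata3 had r = 0.76 (permutation p = 0.00013, adjusted p = 0.00078; rho = 0.66, permutation p = 0.00654). At 3 weeks their r of 0.88 (exact permutation p = 0.00469; rho = 0.69, exact p = 0.0694) fell to 0.32 without M19y and M54, so the relation there rests on those mice. At 6 weeks it was 0.89 (exact permutation p = 0.00124; rho = 0.90, exact p = 0.00456) and 0.75 without M22 and M34.

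Pth and Casr had the lowest r of the 6 pairs in each set of libraries, though not within the time points once the 2 farthest libraries were left out. Over the 16 libraries their r was 0.30 (permutation p = 0.264; rho = 0.26, permutation p = 0.334), and it was 0.73 within the 3-week libraries (exact permutation p = 0.0436, adjusted p = 0.0491; rho = 0.67, exact p = 0.0831) and 0.68 within the 6-week libraries (exact permutation p = 0.0635, adjusted p = 0.0672; rho = 0.55, exact p = 0.171). Without the 2 libraries farthest in Pth these were 0.32, 0.56 and 0.60. Casr and Gcm2 had r = 0.53 over all libraries (permutation p = 0.0336, adjusted p = 0.0403; rho = 0.62, permutation p = 0.0119), 0.82 at 3 weeks (exact permutation p = 0.0115; rho = 0.95, exact p = 0.00114) and 0.82 at 6 weeks (exact permutation p = 0.0123; rho = 0.64, exact p = 0.0962). Without the 2 libraries farthest in Gcm2, r was 0.69 over all libraries, 0.91 at 3 weeks and 0.77 at 6 weeks. Casr and Gata3 had r = 0.72 over all libraries (permutation p = 0.00205, adjusted p = 0.0041; rho = 0.75, permutation p = 0.00139), 0.82 at 3 weeks (exact permutation p = 0.0122; rho = 0.98, exact p = 0.000397) and 0.84 at 6 weeks (exact permutation p = 0.009; rho = 0.64, exact p = 0.0962). Without the 2 libraries farthest in Casr these were 0.68, 0.91 and 0.49, so at 6 weeks the relation was weaker without M22 and M45. At 3 weeks the rho of Casr to Gcm2 and to Gata3 was thus above that of Pth to either gene.

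**Figure D3:**
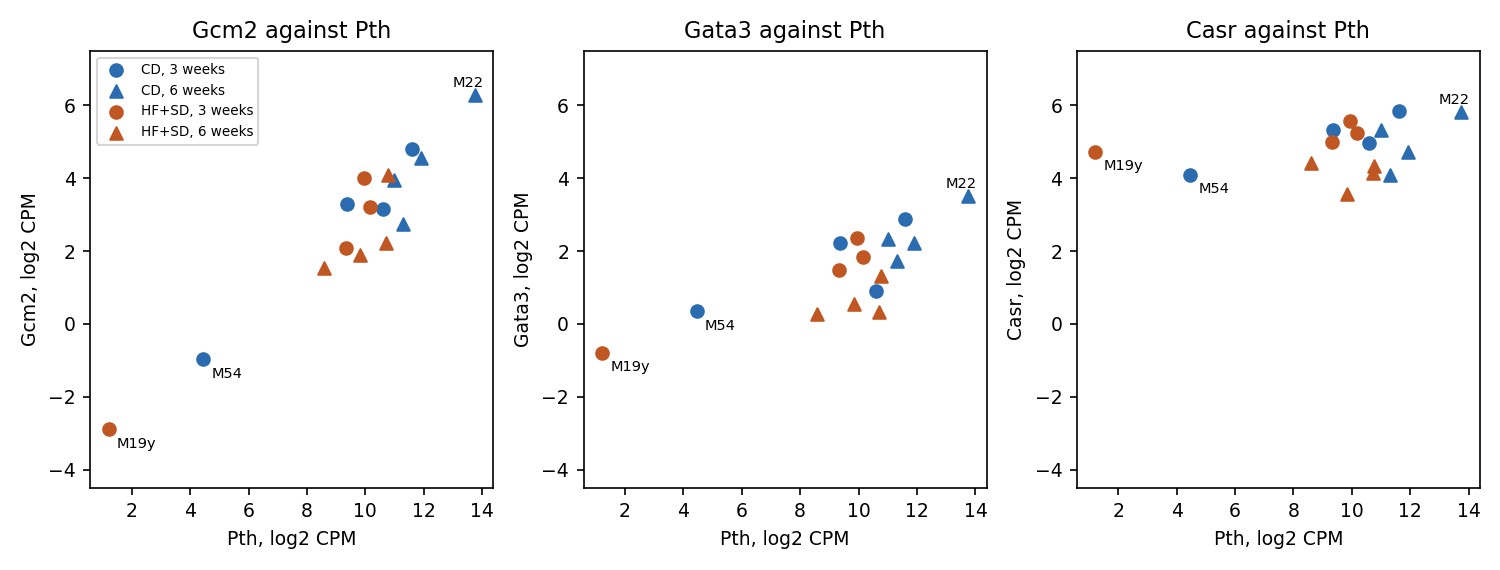
Log2 CPM of Gcm2, Gata3 and Casr against log2 CPM of Pth in the 16 libraries, all on the same vertical scale (circles, 3 weeks; triangles, 6 weeks; blue, CD; orange, HF+SD). Gcm2 runs along Pth over its whole range, Gata3 less steeply, and Casr spans the narrowest range, with M19y and M54 inside or near the range of the other libraries.

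A ratio of 2 genes made only by the same cells does not depend on how much of a library those cells take up. Casr and Gata3 are also made outside the parathyroid, so ratios with either gene can change with the share of parathyroid cells. The log2 ratio of Pth to Gcm2 at 6 weeks was 7.61 ± 0.66 in CD mice and 7.54 ± 0.82 in HF+SD mice (SD, n = 4 each, over log2 CPM), a difference of -0.073 that was far smaller than the spread between mice (exact two-sided permutation p = 0.914). As a plain ratio of CPM, Pth to Gcm2 was 178, 165, 133 and 378 in M22, M43, M45 and M48 (CD), and 102, 356, 133 and 248 in the HF+SD mice M5, M18, M34 and M35. At 3 weeks it was 6.43 ± 0.88 on the CD (n = 4) and 6.71 ± 0.67 on the HF+SD (n = 3, since M19y had under 10 reads of Gcm2), with exact permutation p = 0.686. So the ratio of hormone to transcription factor differed between mice by up to 3.69 times within the 6-week libraries and showed no difference by diet beyond that.

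The log2 ratio of Casr to Gcm2 at 6 weeks was 0.61 ± 0.90 in CD mice and 1.68 ± 1.09 in HF+SD mice (SD, n = 4 each), a difference of 1.07 (exact permutation p = 0.143, adjusted p = 0.686 over 8 ratio tests). The ratio of Pth to Casr was 7.01 ± 0.95 in CD mice and 5.86 ± 1.13 in HF+SD mice, a difference of -1.14 (exact permutation p = 0.171, adjusted p = 0.686). The diets overlapped in both ratios. The ratio of Gata3 to Gcm2 was -1.93 ± 0.78 and -1.82 ± 0.70 (difference 0.11, exact permutation p = 0.800). At 3 weeks, no ratio differed by diet (the smallest exact permutation p was 0.543). M54 had a Casr to Gcm2 ratio of 33.4, against 2.03 to 7.53 in the 6 other 3-week libraries with enough reads.

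**Figure D4:**
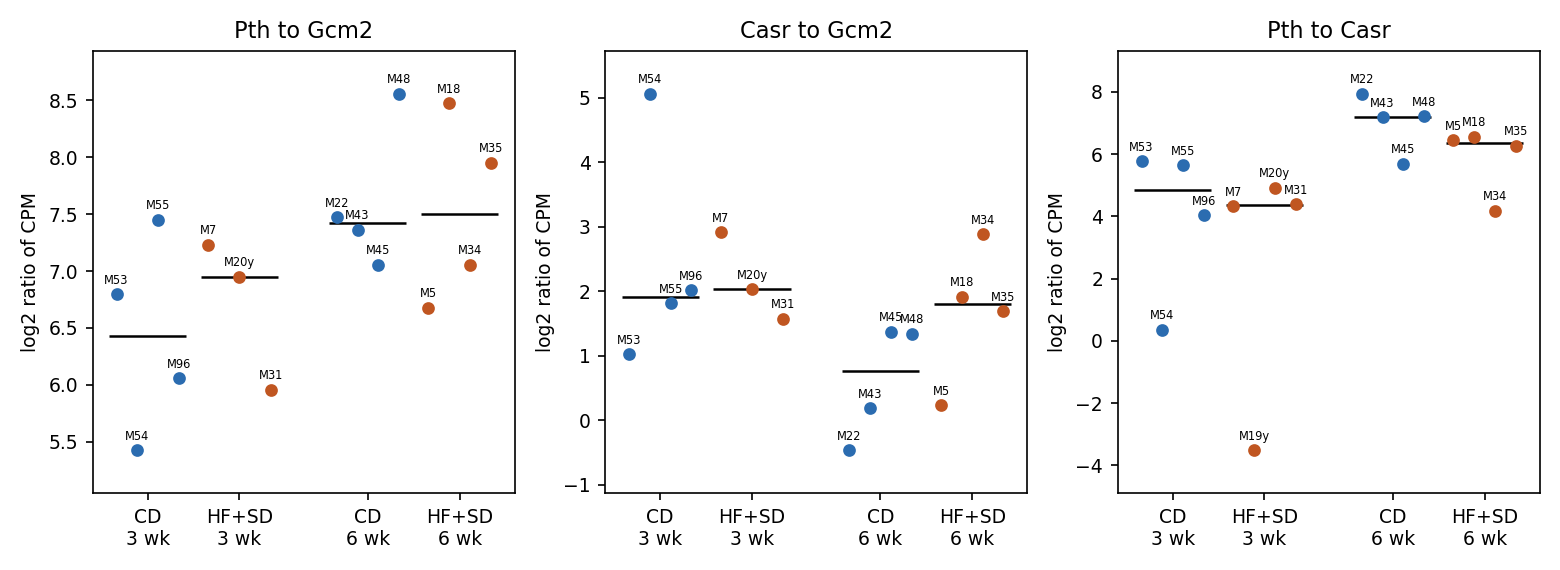
Log2 ratios of CPM of Pth to Gcm2, Casr to Gcm2 and Pth to Casr in each library with at least 10 reads of both genes, by diet (blue, CD; orange, HF+SD) and weeks on the diet; the black line is the group median. The diets overlap in every panel. Mice far from the rest of their group include M54 for Casr to Gcm2 and M54 and M19y for Pth to Casr at 3 weeks. At 6 weeks they include M34 for Pth to Casr.

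Genes whose levels followed the members were ranked by Pearson's r of log2 CPM after subtracting the mean of each group of 4 mice, over 16 libraries and 18929 genes, as a description. The 10 genes most like Pth were Spink8 (r = 0.97), Mcoln3 (0.96), Rhcg (0.95), Gcm2 (0.95), Spp1 (0.95), Nell1 (0.93), Sycp2l (0.93), Pcyt1b (0.92), Cryba2 (0.92) and Aldh1a3 (0.91). Within the 3-week libraries their r ran from 0.94 (Aldh1a3) to 0.99 (Rhcg). Within the 6-week libraries it was 0.98 for Spink8 and Spp1, 0.93 for Mcoln3 and Cryba2 and 0.90 for Aldh1a3. There it was lower for Gcm2 (0.83), Pcyt1b (0.80), Sycp2l (0.79), Rhcg (0.78) and Nell1 (0.73). Over the 16 libraries, only 14 genes had r above 0.9 to Pth and 117 had r above 0.7, while the median of all genes was -0.0060. Rhcg encodes an ammonium transporter, Mcoln3 a cation channel of endosomes, and Spp1 the secreted phosphoprotein osteopontin. Spink8, a serine protease inhibitor gene, had no reads in M54 and M19y. It had 7.42, 4.89 and 1.92 CPM in M53, M55 and M96, and 1.47, 3.46 and 2.26 CPM in M7, M20y and M31. At 6 weeks Spink8 had 31.8, 10.7, 4.59 and 4.72 CPM in M22, M43, M45 and M48 (CD), and 5.63, 4.54, 1.07 and 1.80 CPM in the HF+SD mice M5, M18, M34 and M35. At 6 weeks its log2 fold change was -1.998 (adjusted p = 0.0790). Of the 9 genes besides Gcm2, Cryba2 was called at 6 weeks (-2.18, adjusted p = 0.0353) and none at 3 weeks.

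The 5 genes most like Gcm2 were Sycp2l (r = 0.99), Rhcg (0.99), Pcyt1b (0.99), Chga (0.99) and Gm48510 (0.97). Of these, Sycp2l and Gm48510 are the next genes beside Gcm2 on chromosome 13 in GENCODE M21, on the opposite strand. Mak, 2 places away on the other side, had r = 0.75 to Gcm2, while Elovl2, 3 places away past Gm48510, had 0.21 and Tmem14c had -0.50. Sycp2l had 2419 reads in M22 and 3 reads in M19y, as Gcm2 had 2859 and 3. The 5 genes most like Gata3 were Anpep (r = 0.96), Rasal1 (0.94), Sycp2l (0.94), Kl (0.94) and Gcm2 (0.94). Anpep encodes aminopeptidase N, and its log2 fold change at 6 weeks was -1.27 (adjusted p = 0.0384). The genes most like Casr had lower r, at 0.87 for Cacng5, 0.86 for Myh10 and for Mak, and 0.85 for Gm14616 and Itpr1. Of these, Cacng5 and Gm14616 lay near the floor, with mean levels of 0.243 and 0.172 CPM and at most 31 and 30 reads, in M22. Casr itself had r = 0.59 to Pth, 0.75 to Gcm2 and 0.76 to Gata3 on this scale.

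Chga and Kl, from the lists of secretory granule genes and of vitamin D and FGF23 inputs, varied with Pth and Gcm2 between mice. Chga encodes chromogranin A, a granule protein of chief cells that C cells also make. It had 2176, 82.8, 684 and 1013 CPM in the 3-week CD mice M53, M54, M55 and M96, and 512, 37.3, 920 and 1030 CPM in the HF+SD mice M7, M19y, M20y and M31. At 6 weeks Chga had 2186, 823, 448 and 248 CPM in the CD mice and 728, 148, 125 and 102 CPM in the HF+SD mice (log2 fold change -1.76, adjusted p = 0.152). Kl encodes klotho, the co-receptor of FGF23. It had 129, 34.6, 29.5 and 20.2 CPM in the 6-week CD mice and 25.6, 9.51, 6.24 and 7.87 CPM in the HF+SD mice. The HF+SD level differed from the CD level by -2.12 on the log2 scale (standard error 0.66, adjusted p = 0.0476), a call.

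Calca and Tg, markers of C cells and thyrocytes, varied less between mice of a group than the parathyroid genes. Around the group means, the SD of log2 CPM was 2.42 for Pth, 1.90 for Gcm2, 1.53 for Chga, 1.06 for Kl, 0.88 for Gata3 and 0.51 for Casr. It was 0.21 for Calca, the calcitonin gene, and 0.17 for Tg. Calca had r = 0.40 to Pth and Tg had 0.22. Calca was lower on the HF+SD by 0.90 on the log2 scale at 6 weeks, with an adjusted p of 0.0236 but a fold change below the minimum for a call. At 6 weeks 1 of 10 tested C cell genes was called lower (Calcb, at a mean of 0.778 CPM). With no fold change minimum, 5 of the 10 were lower and 1 higher at an adjusted p under 0.05 (edgeR). Of all tested genes, 21.5% passed that rule in either direction. The median log2 fold change of this list was -0.71 at 6 weeks. At 3 weeks 4 were lower and 2 higher by the same rule, with a median of -0.44, and 14.9% of all tested genes passed it. In M54 and M19y the C cell list took 0.309% and 0.247% of the counts, against 0.300% to 0.656% in the 6 other 3-week libraries. The list holds Chga, and without it the shares were 0.301% in M54 and 0.243% in M19y, against 0.244% to 0.471% in the 6 others.

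**Figure D5:**
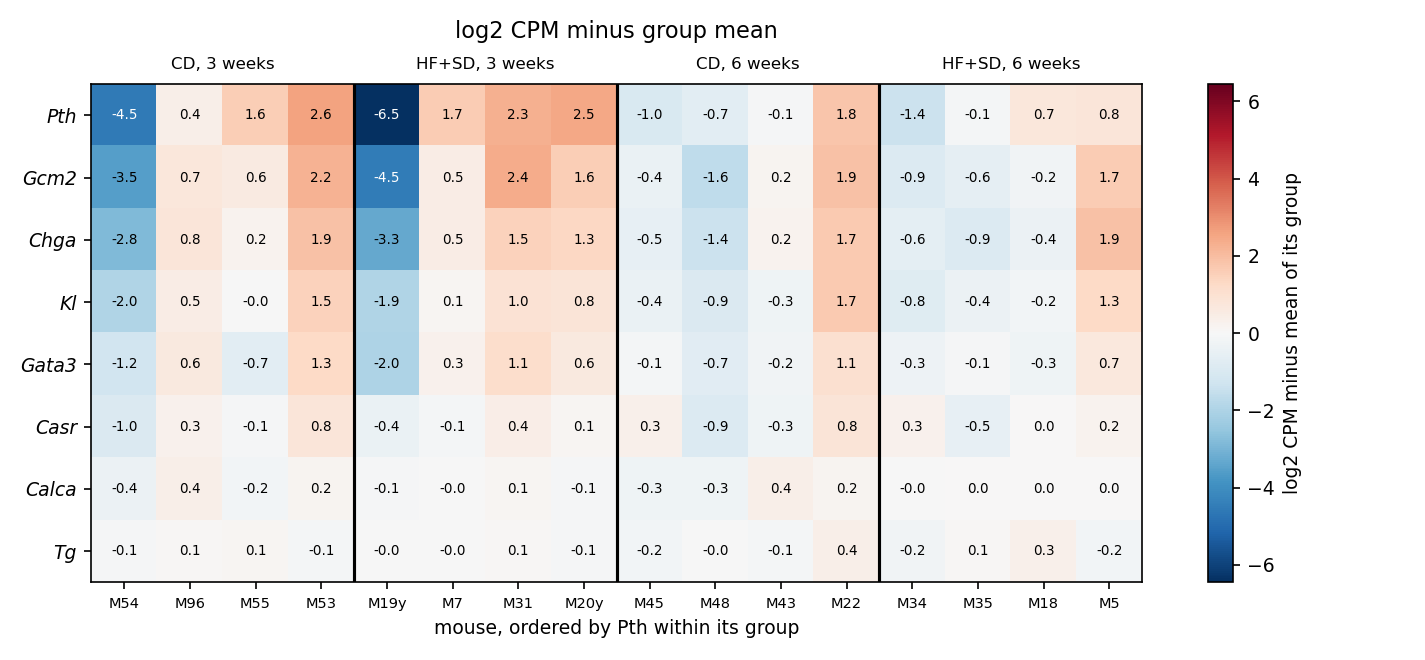
Log2 CPM minus the mean of its group of 4 mice for 8 genes (rows) in the 16 libraries (columns, ordered by Pth within each group); the colour and the printed value give the deviation. The deviations of Pth run from -6.45 to 2.60, those of Gcm2, Chga, Kl and Gata3 shrink in this order with mostly the same sign, and those of Calca and Tg stay between -0.35 and 0.37.

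The wider pathway was read from lists of genes. Of 12 genes of parathyroid development and identity, 11 were in the table and tested. At 6 weeks 6 of the 11 were called lower and none higher, with a median log2 fold change of -1.89 against -0.011 over all genes. Besides Gata3 these included Tbx1 (-1.999, adjusted p = 0.00379), a pharyngeal pouch factor, Eya1 (-2.90, adjusted p = 0.00280), Six4 (-1.48, adjusted p = 0.0161) and Foxn1 (-3.31, adjusted p = 0.00622). Eya1 and Six4 also act in skeletal muscle, and Foxn1 is a factor of thymus epithelium, which arises from the same pouch as the parathyroid. Eya1 had 39.4 and 21.8 CPM in M45 and M48, the libraries richest in muscle RNA, and 10.6 and 11.3 CPM in M22 and M43. Without M45 and M48, 5 of the 11 were called lower (520 of 18878 genes were), Eya1 was at -1.96 and Six4 at -0.72 (adjusted p = 0.0646). Tbx1 had r = 0.83 to Pth and Pax1 0.87, while Eya1 had -0.12 and Foxn1 -0.34. The part of muscle and thymus RNA in these calls was not tested beyond this. At 3 weeks 0 of the 11 were called, with a median of -0.34.

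The list of hormone synthesis and secretory granule genes held 17 tested genes. At 6 weeks 1 was called higher (Scg5, 1.27, adjusted p = 0.00513) and 2 lower (Cpe, -1.18, adjusted p = 0.0248, and Rab3b, -1.08, adjusted p = 0.0159), with a median of -0.53. Scg5 encodes the chaperone of the prohormone convertase PC2, Cpe a carboxypeptidase that trims hormone precursors, and Rab3b a vesicle GTPase. Cpe had 169 and 118 CPM in M45 and M48, and its log2 fold change without them was -0.52 (adjusted p = 0.117). Without these libraries the count was 0 higher and 6 lower. At 3 weeks 0 of the 17 were called, while 6 were lower and 1 was higher (Scg5, 0.33, adjusted p = 0.0244) at an adjusted p under 0.05 with smaller fold changes. Of all tested genes, 14.9% were under that adjusted p in either direction. Besides Pth and Chga, no gene of the list had r above 0.7 to Pth. Highest in mean level after Pth and Chga was Pam, an amidating enzyme of granules, with a log2 fold change of 0.09 at 6 weeks (adjusted p = 0.758).

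Of 19 tested genes of calcium sensing and its signalling, 2 were called higher and 1 lower at 6 weeks. Ramp3, a receptor activity-modifying protein that pairs with Casr and with the calcitonin receptor-like receptor, had 7.87, 4.78, 3.17 and 4.35 CPM in M22, M43, M45 and M48 (CD), and 31.2, 34.9, 31.01 and 29.4 CPM in the HF+SD mice M5, M18, M34 and M35. No mouse of one diet lay within the range of the other, and Ramp3 rose by 2.64 on the log2 scale (standard error 0.26, adjusted p = 0.000331). At 3 weeks Ramp3 rose as well (1.18, adjusted p = 0.00311). Its r to Pth was 0.41. Ramp1, of the same family, was at 140 and 78.5 CPM in M45 and M48 and at 2.85 CPM in M22, with a log2 fold change of -4.31 (adjusted p = 0.0149) that was -2.10 without M45 and M48 (adjusted p = 0.0906). Gnai2, a G protein subunit to which Casr couples, was higher (1.30, adjusted p = 0.000178). The G protein genes Gnaq (0.04, adjusted p = 0.878) and Gna11 (0.09, adjusted p = 0.743) did not pass the test. Among the genes of the list with the highest mean level were Flna (0.33, adjusted p = 0.315) and Ap2m1 (0.11, adjusted p = 0.533).

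Of 17 tested genes of vitamin D, FGF23 and phosphate inputs, 2 were called higher and 2 lower at 6 weeks. Cyp27b1, which makes active vitamin D, had 7.21, 4.64, 1.26 and 5.20 CPM in the CD mice and 10.8, 15.6, 41.6 and 26.3 CPM in the HF+SD mice (2.36, standard error 0.55, adjusted p = 0.0177). Without M45 and M48 its adjusted p was 0.0621. At 3 weeks Cyp27b1 rose too (1.42, adjusted p = 0.0276), with its highest level, 15.7 CPM, in M19y. Its r to Pth was -0.42. Ccnd1, the cyclin D1 gene, was higher (1.62, adjusted p = 0.000178), and Esr1, the oestrogen receptor gene, was lower (-2.21, adjusted p = 0.0157; -1.10 and adjusted p = 0.0792 without M45 and M48). Kl was the other gene called lower. Vdr, the vitamin D receptor gene, did not pass the test (-0.14, adjusted p = 0.778). Those with the highest mean level were Nr3c1 (-0.19, adjusted p = 0.492), Ccnd1 and Rxra (-0.39, adjusted p = 0.394).

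None of the 6 genes whose products act on Pth mRNA stability was called at either time point, with medians of 0.021 at 6 weeks and -0.067 at 3 weeks. Among the highest in level were Dynll1 (0.45 at 6 weeks, adjusted p = 0.0954) and Hnrnpd (-0.05, adjusted p = 0.834). Of the PTH family and its receptors, 3 of 5 genes were in the table. Beside Pth these were Pthlh, the related peptide, at 0.309 to 0.841 CPM at 3 weeks and 0.316 to 1.36 CPM at 6 weeks, and Pth1r, the receptor of both, at 1.33 to 3.04 CPM and 1.75 to 3.95 CPM. Neither passed the test at 6 weeks (Pthlh 0.33, adjusted p = 0.632, and Pth1r 0.14, adjusted p = 0.754).

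Markers of other cell types that a dissected thyroid can hold also moved with the diet at 6 weeks. Of the tested genes, 6 of 8 adipocyte genes and 3 of 5 thymus genes were called lower, 3 of 9 airway and oesophagus epithelium genes and 1 of 13 T cell and ILC2 genes (Cd247) were called higher, 1 of 5 cartilage genes was called in each direction, and none of 7 other epithelium genes was called. The summed share of counts was 0.0854% to 0.227% in CD mice against 0.0443% to 0.0871% in HF+SD mice for the adipocyte list, and 0.00225% to 0.00452% against 0.00233% to 0.00288% for the thymus list. For the T cell and ILC2 list, whose cells use Gata3 too, it was 0.00941% to 0.0135% against 0.00775% to 0.00973%. No marker in the count table was at 0 in all 4 libraries of a group. Only 7 of the 12 thymus markers were in the table, without Psmb11, Dntt, Rag1, Rag2 and Ptcra. Also missing from it were Cckbr of the C cell list, Krt13 of the airway list, Matn1 and Matn3 of the cartilage list, and Tfap2b. At 3 weeks, 5 of 8 adipocyte genes, 1 of 10 C cell genes, 1 of 5 thymus genes and 1 of 6 cartilage genes were called lower, 5 of 16 thyrocyte genes and 1 of 17 skeletal muscle genes were called higher, and no gene was called in the other 3 lists. The part of these cells in the levels of the 4 members was not tested.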

How the data were processed

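Poly(A) RNA of 16 mouse thyroids was measured, 1 library per mouse, and 4 mice made up each group of diet and time on the diet according to the labels. The authors deposited raw counts of reads per gene, with no normalization and no pooling. Their processing notes name Trim Galore 0.6.7, STAR, DESeq2 1.36.0, R 4.1.0 and the build mm39. For the counting tool, the strand setting, the annotation and the choice of the 21640 genes, the sources used here give nothing. A second deposited table, the same counts divided by 1 size factor per library, was not used. Names came from GENCODE M21 by gene identifier without its version (20841 matched, 799 did not), and exon lengths from the same annotation. Library totals of 30025256 to 48508653 counts set the precision of low values, and intervals on counts cover counting error only.

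Diets were compared separately at 3 and at 6 weeks, using edgeR 4.0.16 under R 4.3.3 (TMM, filterByExpr by group, quasi-likelihood test, Benjamini-Hochberg over all tested genes). All 4 members passed the filter at both time points. The standard error is the absolute log2 fold change over the square root of F. Log2 CPM used a prior count of 2, and differences were also tested by exact two-sided permutation. Mice are the replicates. A legend of the study names fewer CD mice at 6 weeks than were deposited, and all 4 deposited libraries were used. Named genes were the 4 members, per list and time point at most 6 called genes with the smallest p and up to 3 of the highest mean level, and the 10 genes most like Pth and 5 most like each other member. Some genes that this rule names are not reported here. The 15 lists hold 6 of the parathyroid pathway and 9 of cell type markers. The members and lists were chosen with earlier results of these data known. Alternatives were DESeq2 1.42.0, upper-quartile factors, scaling to 8 thyrocyte genes, no low-count filter, 1 fit of all 16 libraries, a muscle score as covariate, no fold change minimum, ratios without a prior count or with at least 1 read, and each mouse left out in turn. The 2 pairs of libraries left out together were added after seeing the data. The fits were tested on simulated counts. No gene coordinates of the deposited files are printed, since no annotation of that build was used here.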

Additional observations from a re-analysis of the deposited data

Results flagged for a closer look

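In 45 groups of 4 libraries (CPM and log2 CPM of each member and log2 ratios of members), 1 mouse stood apart from the other 3 by more than Dixon's 95% critical value in 5 cases. Chance gives about 1 in 20 groups, and the groups share mice and genes. At 3 weeks, M19y (HF+SD) was low in log2 CPM of Pth (gap over range 0.906) and in the log2 ratio of Pth to Casr (0.929), at 2.09 CPM of Pth against 592 to 1062 CPM in the other 3 mice. At 6 weeks, M5 (HF+SD) was high in CPM of Gcm2 (0.872) and of Gata3 (0.858), at 18.9 and 2.71 CPM. M34 (HF+SD) was low in the log2 ratio of Pth to Casr at 6 weeks (0.875), at 4.18 against 6.26 to 6.56 in the other 3 mice.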

How the results depend on the processing

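At 6 weeks the 4 diet effects kept their negative sign under all alternatives, and the side of the threshold moved as follows. Pth passed the test with DESeq2 (-2.18, adjusted p = 0.0344), where Casr had an adjusted p of 0.0391 at -0.93, short of the fold change minimum. In edgeR, the fit of all 16 libraries moved Pth (-2.24, adjusted p = 0.185) and Gcm2 (-2.12, adjusted p = 0.149) farther above the threshold. Pth also moved farther above it without M34 (adjusted p = 0.118) or M35 (adjusted p = 0.125). The thyrocyte scaling, which shifts the median gene by -0.55, gave -2.46 for Pth, -2.29 for Gcm2 and -1.37 for Casr, each now called. With the muscle score as covariate they were also called, at -2.84 for Pth, -2.53 for Gcm2 and -1.29 for Casr. Muscle genes took 3.45% to 14.5% of the counts in M43, M45 and M48, against at most 0.398% on the HF+SD. M22, the highest in Pth and Gcm2, was the only CD library with as little. The score thus nearly separates the diets, and this fit cannot tell muscle RNA from diet. Pth without M45 and M48 was at -2.85. Leaving out 1 mouse in turn gave -2.47 to -1.20 for Pth (called without M45), -2.99 to -1.06 for Gcm2 (called without M5), -1.15 to -0.58 for Casr (called without M48) and -2.20 to -1.40 for Gata3 (not called without M18 or M34). At 3 weeks no alternative called a member. The muscle score moved the 3-week values to -1.84 for Pth, -2.04 for Gcm2, -1.46 for Gata3 and -0.50 for Casr (adjusted p from 0.282 to 0.682), against -0.94, -0.67, -0.34 and -0.0077. The sign turned when 1 mouse was left out for Gcm2 (-1.38 to 0.21), Casr (-0.24 to 0.29) and Gata3 (-0.74 to 0.21), and for Casr with upper-quartile factors (0.0038). Genes called at 6 weeks numbered 2308, against 4067 with the thyrocyte scaling, 1465 with the muscle score, 1470 without M45 and M48, 3927 with no fold change minimum, and 1468 to 3169 with 1 mouse left out (1468 without M34, 3169 without M22). At 3 weeks 803 were called, and 2560 with no fold change minimum. The 4 interactions kept their sign and stayed above 0.05 under all 20 alternatives each.

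No ratio between members passed the test under any alternative. With at least 1 read, which adds M19y, the 3-week differences turned for Pth to Gcm2 (-0.38), Casr to Gcm2 (1.05) and Gata3 to Gcm2 (0.59). With 1 mouse left out, the differences ran at 3 weeks from -0.056 to 0.66 for Pth to Gcm2, -0.79 to 0.55 for Casr to Gcm2, -2.63 to 0.59 for Pth to Casr and -0.65 to 0.54 for Gata3 to Gcm2. At 6 weeks they ran from -0.39 to 0.24 for Pth to Gcm2 and -0.17 to 0.43 for Gata3 to Gcm2. The cause of these changes was not tested, except that fewer mice or reads enter by construction. With 4 mice a group, the 3-week intervals of Pth and Gcm2 span several log2 units, and they include both 0 and the 6-week value. No paired analysis was possible because the labels give mouse names and no numbers shared between groups.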
